A study of Canis lupus familiaris with 60 samples.

Results

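TNF, TNFSF9 and TNFSF13B are 3 ligands of the tumor necrosis factor family that were measured in dog skin by 5 of the 60068 probes of a one-color canine microarray. The probes were those annotated to the RefSeq transcripts of TNF (NM_001003244) and TNFSF13B (NM_001161710), and the single probe A_11_P225203 for TNFSF9. The array files name no gene for that last probe, so its identity rests on the annotation in the study's gene list. Of the 5 probes, 4 passed the filter on dim spots, as did 45972 of all probes. Each gene was represented by its brightest probe past the filter.

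The biopsies came from 12 Beagle dogs of 2 to 3 years. The 6 sensitized dogs (4 males, 2 females) had been sensitized through the skin to the house dust mite Dermatophagoides farinae, and the 6 nonsensitized dogs (2 males, 4 females) were nonallergic controls. The sexes were thus not balanced between the groups, and the part of sex in the differences was not tested. Every dog gave 5 punch biopsies of 8 mm: untreated skin at 0 hr, and skin under a patch of 75 mg mite paste (allergen) or 50 µl physiologic saline at 6 hr and at 24 hr. All sites had been shaved, and the patches were bandaged. These were experimentally sensitized dogs of 1 breed, and a biopsy holds every cell type of the skin. The 60 arrays form 10 groups of 6. Specimen 14, the 24 hr allergen site of sensitized dog 2839, was left out, so that group has 5 arrays. The methods give poor RNA integrity and an array that stood apart from the rest as the reason.

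Ligands of this family are mostly made as trimeric membrane proteins, and some are cleaved into soluble cytokines. They bind receptors that recruit TRAF adaptors or death domains and lead to NF-kB activation, survival or cell death. TNF is the classical inflammatory cytokine of macrophages, mast cells and keratinocytes and acts on endothelium through TNFRSF1A and TNFRSF1B. TNFSF9 is the ligand of the T cell costimulatory receptor TNFRSF9 (CD137) and is carried by activated antigen-presenting cells. TNFSF13B, or BAFF, is a survival factor for B cells made by myeloid cells, and it binds TNFRSF13B, TNFRSF13C and TNFRSF17.

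The 59 arrays had a median processed signal between 81.7 and 146 before scaling and between 68.9% and 80.2% of spots well above background. Brightness moved with time: the median signal of an array lay between 84.8 and 125.8 at 0 hr, between 81.7 and 133.4 at 6 hr and between 104.3 and 146.1 at 24 hr, with medians of 100.1, 94.2 and 125.3. The part of brightness in the differences between times was not tested beyond the scaling of the arrays. Keratinocyte markers were bright, as skin holds them. The 5 keratinocyte markers tested had a mean normalized signal of 12.88 in untreated skin of sensitized dogs and 12.89 in that of nonsensitized dogs, on the log2 scale. By slide, 24 hr samples filled mainly numbers 1 to 3, 6 hr samples 4 to 8 and untreated skin 6 to 8, so time and slide overlap in large part. Sensitization overlaps with slide too. At 24 hr, slide 1 held 4 allergen arrays of nonsensitized dogs and none of sensitized dogs, while slide 3 held 1 and 3. At 6 hr, allergen arrays were on slides 4 and 8 for nonsensitized dogs and on slides 5 to 7 for sensitized dogs.

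The saline sites of sensitized dog 2855 went against the order in time of the other dogs. At 6 hr this dog had the highest saline value of its group for TNFSF9 (7.22, the others at most 6.09) and TNFSF13B (7.35, the others at most 6.85). At 24 hr it had the lowest, 6.20 against 7.02 to 7.56 for TNFSF9 and 6.80 against 7.35 to 7.76 for TNFSF13B. Over all probes without a missing value, the change of its saline site from 6 hr to 24 hr correlated at 0.29 with the mean change of the other 5 sensitized dogs, positive but the lowest of the 6 (0.43 to 0.69 for the others). The arrays were kept under their labels, and results that turn on them are given without this dog too.

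TNFSF9 and TNFSF13B were low in untreated skin, were higher under both kinds of patch at 24 hr, and at that time the difference of allergen minus saline was positive on average in sensitized and negative in nonsensitized dogs. With the slide fitted too, the limma adjusted p of the rise over untreated skin at 24 hr stayed below 0.05 only at the allergen sites of sensitized dogs, for both genes. The brighter TNF probe stayed within a narrow band in all groups. TNFSF9 had group means from 5.55 in untreated skin of sensitized dogs to 7.65 at their 24 hr allergen sites, and TNFSF13B from 6.49 to 7.86 (log2 of the normalized signal). TNF had group means between 6.04 and 6.59. The values of adjacent groups in the order of means overlapped in every case, for each of the 3 genes.

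**Figure D1:**
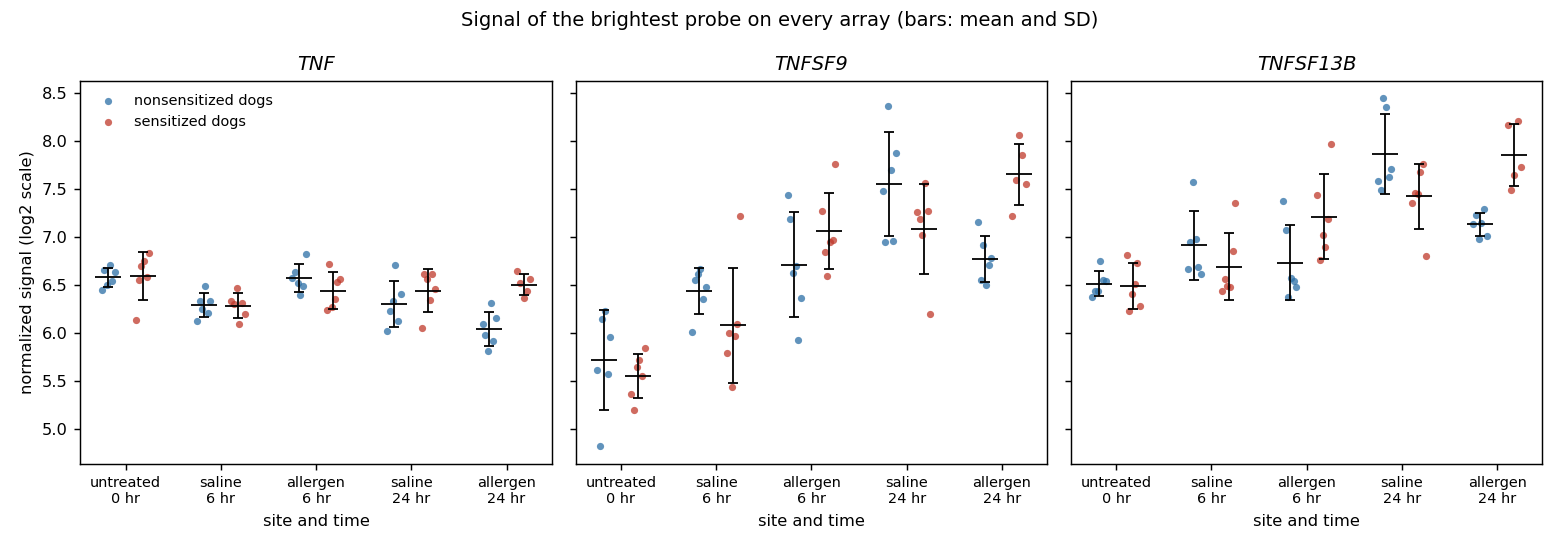
Normalized signal (log2 scale, vertical axis) of the brightest probe of TNF, TNFSF9 and TNFSF13B on each of the 59 arrays, by site and time, with sensitized dogs in red and nonsensitized dogs in blue; black bars give the mean and SD. TNFSF9 and TNFSF13B climb from untreated skin to 24 hr, times that overlap with slide in large part. At 24 hr the allergen values of sensitized dogs lie above those of nonsensitized dogs with no overlap, a separation of the 2 groups that 7.89% of all probes had in one direction or the other.

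Before any patch, the dogs did not differ detectably. TNFSF9 in untreated skin had a lowest, median and highest value of 5.20, 5.60 and 5.84 in sensitized dogs and of 4.82, 5.78 and 6.23 in nonsensitized dogs. The difference of sensitized minus nonsensitized dogs was -0.17 (95% interval -0.66 to 0.32) for TNFSF9, -0.02 (-0.39 to 0.35) for TNFSF13B and 0.01 (-0.20 to 0.22) for TNF, with a limma adjusted p of 1.0 for each. None of the 3 genes was past the threshold, which was an adjusted p below 0.05 (Benjamini-Hochberg over all probes) and a 1.5-fold difference, against 0.00218% of all probes tested.

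At 6 hr, TNFSF9 was the only one of the 3 genes past the threshold for allergen against saline, and only in sensitized dogs. At the 6 hr allergen sites of sensitized dogs its lowest, median and highest values were 6.59, 6.96 and 7.76, against 5.44, 5.98 and 7.22 at the saline sites. All 6 dogs had a higher value at the allergen site, although the ranges overlapped through 1 saline site, that of dog 2855. The difference was 0.98 (SE 0.24, 1.97-fold, limma adjusted p = 0.0440), against 0.418% of all probes past the threshold in this comparison. In nonsensitized dogs the difference was 0.26 (SE 0.24, adjusted p = 0.970), and 4 of 6 dogs were higher at the allergen site.

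That 6 hr difference of TNFSF9 lay near the threshold. It kept its direction without any 1 dog, but the limma adjusted p rose to 0.0507 without dog 2802, 0.415 without dog 2838, 0.108 without dog 2839, 0.110 without dog 2840, 0.0856 without dog 2841, 0.0645 without dog 2847 and 0.129 without dog 2853.

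TNFSF13B had a lowest, median and highest value of 6.76, 7.10 and 7.97 at the 6 hr allergen sites of sensitized dogs and of 6.44, 6.52 and 7.35 at their saline sites. All 6 dogs were higher at the allergen site, by 0.52 on average (SE 0.19, limma adjusted p = 0.257, an exact sign-flip test over 6 dogs gave p = 0.0312, the smallest it can give). Nonsensitized dogs gave -0.18 (SE 0.19, adjusted p = 0.973), with 2 of 6 higher at the allergen site. TNF gave 0.16 (SE 0.10) in sensitized dogs and 0.28 (SE 0.10) in nonsensitized dogs, with adjusted p of 0.730 and 0.894. The share of all probes past the threshold in nonsensitized dogs at 6 hr was 0.0348%. These 6 hr counts rested on single dogs: the 192 probes in sensitized dogs became 33 without dog 2838, 54 without dog 2855, 106 without dog 2839, 108 without dog 2853 and 114 without dog 2840, and the 16 in nonsensitized dogs became 9 without dog 2704, 10 without dog 2800 and 8 without dog 2802.

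The difference between the groups of dogs in their allergen minus saline difference, the interaction, was not past the threshold at 6 hr for any of the 3 genes, nor for any probe (0%). By limma, 523 probes (1.14% of all) had an unadjusted p below 0.05. This count became 1141 without dog 2704 and 1042 with the dog as a block. The 6 hr interaction was 0.72 (95% interval 0.02 to 1.41) for TNFSF9, 0.69 (0.16 to 1.22) for TNFSF13B and -0.12 (-0.41 to 0.17) for TNF, each with an adjusted p of 1.0. An exact two-sided permutation of the group labels over the differences of 12 dogs, unadjusted, gave p = 0.0455 for TNFSF9, 0.0281 for TNFSF13B and 0.351 for TNF.

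At 24 hr, the mean TNFSF9 and TNFSF13B signal was higher at allergen than at saline sites in sensitized dogs and lower in nonsensitized dogs. For TNFSF9 the 5 allergen values of sensitized dogs were 7.22, 7.55, 7.59, 7.85 and 8.06, and the saline values had a lowest, median and highest of 6.20, 7.22 and 7.56. In nonsensitized dogs the values were 6.50, 6.75 and 7.15 with allergen and 6.95, 7.59 and 8.36 with saline. Allergen values thus overlapped saline values within each group of dogs, while the allergen values of the 2 groups of dogs did not overlap, by the narrow margin of 7.22 against 7.15. The same 2 groups of arrays did not overlap for 7.89% of all probes.

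For TNFSF13B the 5 allergen values of sensitized dogs were 7.49, 7.64, 7.73, 8.16 and 8.21, against 6.80, 7.45 and 7.76 (lowest, median, highest) with saline. Nonsensitized dogs had 6.98, 7.13 and 7.29 with allergen and 7.49, 7.66 and 8.44 with saline. Here the allergen values of nonsensitized dogs lay below every one of their saline values, and these groups did not overlap for 1.87% of all probes. The allergen sites of sensitized dogs exceeded those of nonsensitized dogs by 0.89 (SE 0.26, limma adjusted p = 0.0107) for TNFSF9 and by 0.72 (SE 0.20, adjusted p = 0.00673) for TNFSF13B, where 7.13% of all probes were past the threshold, and with the slide as a block neither difference was (0.85, adjusted p = 0.0759, and 0.62, adjusted p = 0.0700). Saline sites went the other way at 24 hr, with means of 7.08 in sensitized and 7.55 in nonsensitized dogs for TNFSF9 and 7.42 and 7.86 for TNFSF13B. With the slide as a block these saline differences were -0.48 (limma adjusted p = 0.364) and -0.55 (limma adjusted p = 0.152).

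The interaction at 24 hr was 1.36 (SE 0.35, 2.56-fold, limma adjusted p = 0.0394) for TNFSF9 and 1.17 (SE 0.27, 2.24-fold, adjusted p = 0.0190) for TNFSF13B. These 2 of the 3 genes were past the threshold, against 0.938% of all probes (431 of 45972, 276 higher and 155 lower). The study had listed both genes from these same arrays, so their being past the threshold is not independent evidence. In a bulk biopsy, more cells of a type that carries a transcript and more transcript per cell cannot be told apart.

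In nonsensitized dogs TNFSF13B was lower at the allergen site by 0.73 (1.66-fold, SE 0.19, limma adjusted p = 0.0251), in 6 of 6 dogs, in a comparison where 0.766% of all probes were past the threshold. TNFSF9 was also lower in 6 of 6 nonsensitized dogs, with a difference of -0.78 (SE 0.24) that missed the threshold (adjusted p = 0.0921) but passed it with the dog as a block (adjusted p = 0.0391). In sensitized dogs the differences were 0.57 (95% interval 0.06 to 1.09, adjusted p = 0.371) for TNFSF9 and 0.43 (0.04 to 0.82, adjusted p = 0.381) for TNFSF13B. Of 5 sensitized dogs, 4 had the higher value with allergen for either gene, and neither was past the threshold, against 0.274% of all probes. Both counts of probes moved with single dogs: the 352 in nonsensitized dogs became 119 without dog 2800 and 94 without dog 2802, and the 126 in sensitized dogs became 30 without dog 2855, 50 without dog 2838, 57 without dog 2839 and 771 with specimen 14 put back.

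Dog by dog, the differences of the 2 groups did not overlap for either gene, which held for 3.5% of all probes. For TNFSF9 the 5 sensitized dogs averaged 0.59 ± 0.49 (SD) and the 6 nonsensitized dogs -0.78 ± 0.52 (SD), and an exact two-sided permutation of the group labels gave p = 0.00216, the smallest that 462 arrangements can give. For TNFSF13B the means were 0.44 ± 0.43 and -0.73 ± 0.49, with the same exact permutation p of 0.00216. The group means of TNF differed by 0.36 on the same scale, with an exact permutation p of 0.0281. These are unadjusted values, from 6 such tests over the 3 genes and both times. The largest differences of a sensitized dog, 1.35 for TNFSF9 and 0.93 for TNFSF13B, were those of dog 2855, whose saline site was the lowest. The permutation was not repeated without this dog.

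**Figure D2:**
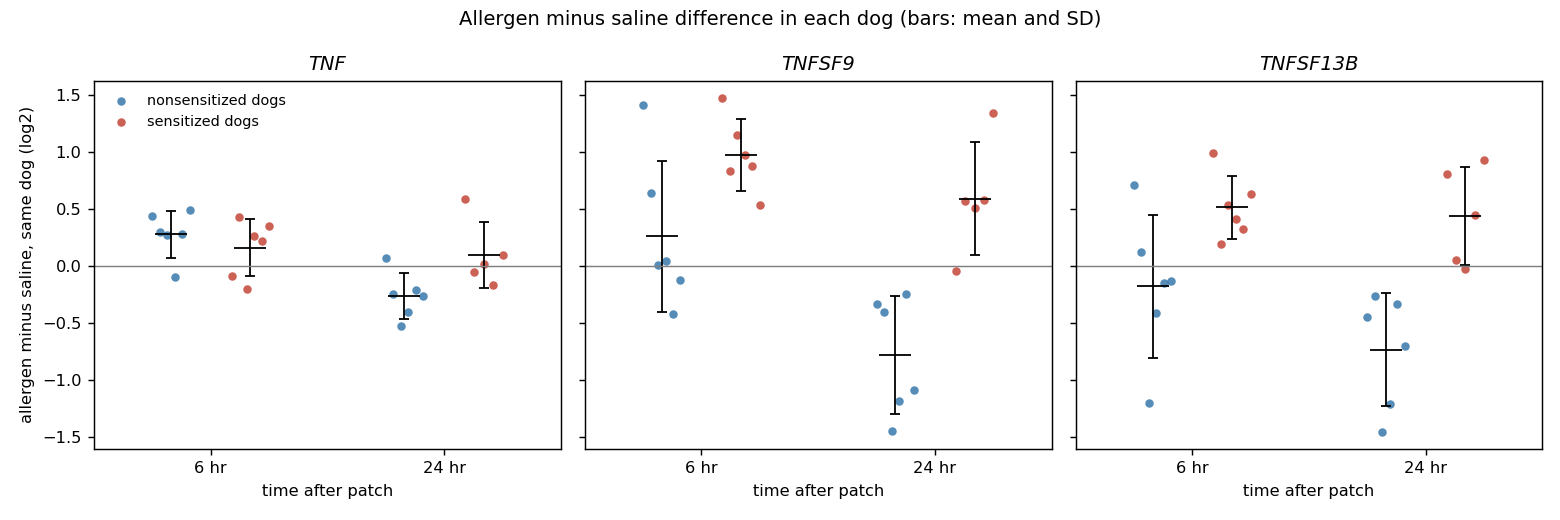
Allergen minus saline difference of each dog (log2, vertical axis) at 6 hr and 24 hr for TNF, TNFSF9 and TNFSF13B, sensitized dogs in red and nonsensitized dogs in blue, with black bars for the mean and SD. At 24 hr all 6 nonsensitized dogs lie below 0 for TNFSF9 and TNFSF13B, between -0.25 and -1.46.

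The 24 hr interaction depended on single dogs for its side of the threshold. For TNFSF9 the limma adjusted p was 0.139 without dog 2800, 0.126 without dog 2802, 0.0680 without dog 2839, 0.0616 without dog 2840, 0.0619 without dog 2841, 0.0963 without dog 2847, 0.0664 without dog 2853 and 0.116 without dog 2855, with differences between 1.21 and 1.5 over all 12 exclusions. For TNFSF13B it was 0.0814 without dog 2800, 0.0923 without dog 2802, 0.0529 without dog 2838 and 0.0637 without dog 2855, with differences between 1.02 and 1.27. The lower TNFSF13B signal at the allergen sites of nonsensitized dogs had an adjusted p of 0.213 without dog 2800, 0.232 without dog 2802 and 0.0752 without dog 2847, and TNFSF9 in the same dogs passed the threshold without dog 2855 (adjusted p = 0.0361). The number of probes past the threshold fell to 45 without dog 2800, 43 without dog 2802 and 15 without dog 2855, and was 208 without dog 2839, 253 without dog 2845, 216 without dog 2847 and 760 without dog 2704.

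The slide was also fitted. With the slide as a block, the interaction was 1.33 (limma adjusted p = 0.0327) for TNFSF9 and 1.17 (adjusted p = 0.0123) for TNFSF13B. Slides 2 and 3 each held all 4 kinds of 24 hr site, and there the interaction was 1.73 and 1.72 for TNFSF9 and 1.07 and 1.83 for TNFSF13B. These are values with no test, since 2 of the 4 kinds of site had 1 array each on either slide.

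TNF had smaller differences. Its brighter probe had values of 6.36, 6.44, 6.52, 6.56 and 6.64 at the 24 hr allergen sites of sensitized dogs and 6.05, 6.51 and 6.61 (lowest, median, highest) at their saline sites. Nonsensitized dogs had 5.81, 6.04 and 6.31 with allergen and 6.02, 6.28 and 6.71 with saline. The allergen values of the 2 groups of dogs did not overlap (6.36 against 6.31 at the nearest, and 7.89% of all probes), but the difference between them, 0.46 (1.38-fold, SE 0.11, limma adjusted p = 0.00193), was under 1.5-fold, and with the slide as a block it was 0.26 (adjusted p = 0.158).

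The 24 hr interaction of TNF was 0.33 (95% interval 0.03 to 0.63, limma adjusted p = 0.290). Allergen minus saline was 0.06 (SE 0.11, adjusted p = 0.949) in sensitized and -0.26 (SE 0.10, adjusted p = 0.236) in nonsensitized dogs. Within slides 2 and 3 the interaction of TNF was -0.14 and 0.48.

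Both TNF probes target the same RefSeq transcript, yet they did not move together. The brighter probe, A_11_P000001224, was well above background on 59 of 59 arrays with signals of 42.1 to 117. The dimmer one, A_11_P055276, was well above background on 11 of 59 arrays, had a median signal of 7.20 and failed the filter. Over the 59 arrays, which share dogs and slides, their correlation was 0.09, while the dimmer probe correlated at 0.45 with TNFSF9 and 0.50 with TNFSF13B.

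The dimmer TNF probe reached background-clearing signal most often at 24 hr, on 3 of 5 allergen arrays of sensitized dogs and 3 of 6 saline arrays of nonsensitized dogs. The other 24 hr groups, sensitized dogs with saline and nonsensitized dogs with allergen, had 1 such array of 6 each, so a difference between these groups would be one against background and no size is given. Which of the TNF probes follows the TNF transcript in this tissue was not tested.

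The 3 brighter TNFSF13B probes, in contrast, moved together. The second probe for NM_001161710 and the probe for another TNFSF13B entry, FJ793193, each correlated at 0.98 with the brightest probe over the 59 arrays. Their 24 hr interactions were 1.08 (limma adjusted p = 0.0376) and 1.19 (adjusted p = 0.0174). A dimmer probe, for XM_542664, was well above background on 29 of 59 arrays. At 24 hr these were 5 of 5 allergen and 5 of 6 saline arrays of sensitized dogs and 2 of 6 allergen and 6 of 6 saline arrays of nonsensitized dogs, so its interaction would be measured in part against background and no size is given.

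**Figure D3:**
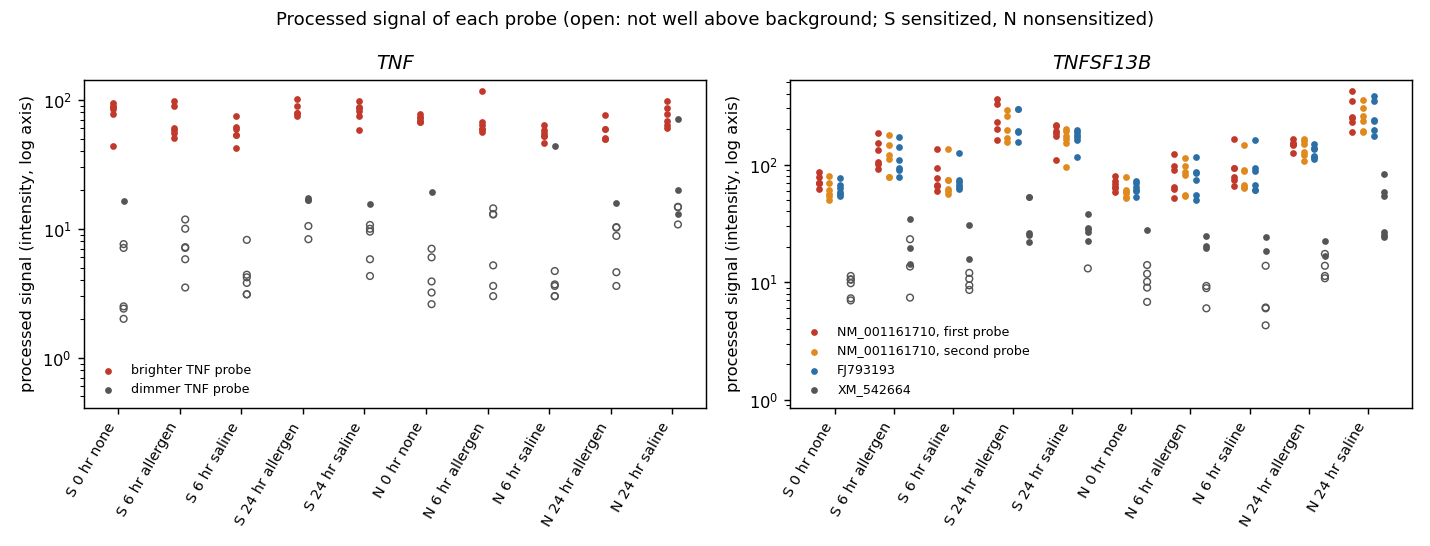
Processed signal (intensity, log axis) of every TNF and TNFSF13B probe in the 10 groups, S for sensitized and N for nonsensitized dogs; open circles are arrays on which the probe was not well above background. The brighter TNF probe keeps between 42.1 and 117 throughout while the dimmer one is mostly open, and 3 TNFSF13B probes rise and fall together.

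TNFSF9 and TNFSF13B were higher at 24 hr than in untreated skin under both kinds of patch in the fit without slides. TNFSF9 was higher by 2.10 (SE 0.26, 4.29-fold, limma adjusted p = 2.55e-08) at the allergen sites and by 1.53 (SE 0.24, adjusted p = 1.03e-05) at the saline sites of sensitized dogs, comparisons in which 13.7% and 9.48% of all probes were past the threshold. In nonsensitized dogs it was higher by 1.04 (SE 0.24, adjusted p = 0.000465) with allergen and by 1.83 (SE 0.24, adjusted p = 4.57e-08) with saline, against 17% and 22.7% of all probes. Thus the larger value belonged to the allergen site in sensitized dogs and to the saline site in nonsensitized dogs.

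TNFSF13B followed the same order. It was higher than in untreated skin by 1.35 (SE 0.20, limma adjusted p = 5.56e-07) with allergen and 0.92 (SE 0.19, adjusted p = 0.000189) with saline in sensitized dogs, and by 0.61 (SE 0.19, adjusted p = 0.00584) with allergen and 1.35 (SE 0.19, adjusted p = 7.91e-08) with saline in nonsensitized dogs. Leaving out 1 dog at a time, these calls at 24 hr stayed past the threshold for both genes except TNFSF13B at the allergen sites of nonsensitized dogs without dog 2716 (0.58, adjusted p = 0.0240, under 1.5-fold). TNF at the 24 hr allergen sites of nonsensitized dogs was below untreated skin in 6 of 6 dogs, by -0.54 on the log2 scale (SE 0.10, adjusted p = 3.24e-05), a 1.45-fold difference that is under the 1.5-fold limit, and the value was -0.31 (adjusted p = 0.552) with the slide as a block.

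With the slide as a block, the rise over untreated skin kept its direction for both genes at all 4 sites and stayed past the threshold only at the 24 hr allergen sites of sensitized dogs (TNFSF9 1.99, limma adjusted p = 0.00177, and TNFSF13B 0.96, adjusted p = 0.0367). The standard errors were larger than without the block. For TNFSF9 the saline sites gave 1.38 (SE 0.54, adjusted p = 0.0995) in sensitized and 1.57 (SE 0.59, adjusted p = 0.117) in nonsensitized dogs, and the allergen sites of nonsensitized dogs gave 0.85 (SE 0.59, adjusted p = 0.545). For TNFSF13B the same sites gave 0.50 (SE 0.39, adjusted p = 0.481), 0.86 (SE 0.42, adjusted p = 0.267) and 0.15 (SE 0.42, adjusted p = 0.907). The part of the slide in these rises was not tested.

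At 6 hr TNFSF9 was already higher than in untreated skin by 1.51 (SE 0.24, limma adjusted p = 6.8e-05) at allergen sites of sensitized dogs, by 0.98 (SE 0.24, adjusted p = 0.0104) at allergen sites of nonsensitized dogs and by 0.72 (SE 0.24, adjusted p = 0.0496) at their saline sites, in comparisons where 3.87%, 1.61% and 2.26% of all probes were past the threshold. At the 6 hr saline sites of sensitized dogs the value was 0.53 (adjusted p = 0.148), against 2.64% of all probes. For TNFSF13B only the 6 hr allergen sites of sensitized dogs were past it, at 0.71 (SE 0.19, adjusted p = 0.00629), and the order of the 2 genes in time was not tested. Without dog 2855 that TNFSF13B value was 0.52 (adjusted p = 0.0604). TNFSF9 at the allergen sites of nonsensitized dogs was 0.82 (adjusted p = 0.118) without dog 2704 and 0.70 (adjusted p = 0.141) without dog 2716. At their saline sites it kept its side of the threshold only without dog 2855, among the 12 exclusions, with 0.52 (adjusted p = 0.262) without dog 2716 and values between 0.71 and 0.78 otherwise. The counts of all probes moved too: 1779 at allergen sites of sensitized dogs became 1000 without dog 2855 and 2906 without dog 2839, 739 at those of nonsensitized dogs became 182 without dog 2704 and 282 without dog 2716, 1215 at saline sites of sensitized dogs became 2503 without dog 2838, 708 without dog 2841 and 518 without dog 2855, and 1041 at those of nonsensitized dogs became 554 without dog 2716. With the slide as a block, only the first of these 6 hr rises of TNFSF9 stayed past the threshold (1.62, SE 0.31, adjusted p = 0.0118). The allergen and saline sites of nonsensitized dogs gave 0.73 (SE 0.36, adjusted p = 0.776) and 0.57 (SE 0.37, adjusted p = 1.0) for TNFSF9, and the 6 hr value of TNFSF13B was 0.61 (SE 0.22, adjusted p = 0.203).

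From 6 hr to 24 hr, the mean of both genes was higher at the later time at saline sites, in 5 of 6 sensitized and 6 of 6 nonsensitized dogs. Dog 2855 was the exception, with changes of -1.02 for TNFSF9 and -0.54 for TNFSF13B. Without it the sensitized difference was 1.40 (SE 0.23, limma adjusted p = 0.000114) for TNFSF9 and 0.98 (SE 0.18, adjusted p = 0.000349) for TNFSF13B. TNFSF9 at saline sites was higher at 24 hr by 1.00 (SE 0.24, limma adjusted p = 0.00596) in sensitized and 1.11 (SE 0.24, adjusted p = 0.000503) in nonsensitized dogs. At allergen sites its differences were 0.59 (adjusted p = 0.156) and 0.06 (adjusted p = 0.881). Saline values of TNFSF13B were higher at 24 hr by 0.72 (adjusted p = 0.00881) and 0.95 (adjusted p = 0.000120), and its allergen values by 0.64 (adjusted p = 0.0354) in sensitized dogs, against 2.06% of all probes, and not past the threshold in nonsensitized dogs (0.39, adjusted p = 0.106, 8.08% of all probes). That allergen difference of TNFSF13B missed the threshold without dog 2838 (adjusted p = 0.107), 2839 (0.105), 2841 (0.113, where the count of all probes was 520 instead of 948) or 2853 (0.14), and its saline difference in sensitized dogs without dog 2841 (0.63, adjusted p = 0.0639). The saline comparisons had 2.58% and 9.56% of all probes past the threshold, and none of these rises between 6 hr and 24 hr stayed past it with the slide as a block. There the saline differences in sensitized and nonsensitized dogs were 0.79 (SE 0.61, adjusted p = 0.482) and 1.00 (SE 0.60, adjusted p = 0.356) for TNFSF9 and 0.51 (SE 0.44, adjusted p = 0.544) and 0.92 (SE 0.43, adjusted p = 0.202) for TNFSF13B, and the allergen sites of sensitized dogs gave 0.36 (SE 0.38, adjusted p = 0.656) for TNFSF13B.

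The receptors of these ligands could be followed only in part. The 24 receptors looked for gave 5 tested genes. TNFRSF1B, TNFRSF9, TNFRSF13B, TNFRSF13C and TNFRSF17 were not matched to a probe and were not analysed here. TNFRSF1A, the main TNF receptor, was past the threshold for the 24 hr interaction (0.81, SE 0.20, limma adjusted p = 0.0330), with -0.84 (adjusted p = 0.000252) in nonsensitized and -0.04 (adjusted p = 0.985) in sensitized dogs. LTBR, the lymphotoxin receptor, was lower at the 24 hr allergen sites of nonsensitized dogs by 0.64 (adjusted p = 0.00406). In that comparison 2 of the 5 receptors were past the threshold, both lower, as were 0.659% of all probes. TNFRSF1A and LTBR take their names from the study's list from these arrays, so they are not independent evidence. The median interaction of the 5 receptors was 0.77, beside -0.004 for all probes, and 1 of 5 was past the threshold, against 0.938% of all probes. The 3 receptors named through RefSeq had a median of 0.77 and none past the threshold.

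Of the 15 other ligands looked for, 4 were tested (LTB, CD40LG, TNFSF10 and EDA) and none was past the threshold in the 24 hr interaction. LTB, a lymphotoxin subunit, gave 1.11 (SE 0.46, limma adjusted p = 0.225) and CD40LG, the helper T cell ligand of CD40, gave 0.67 (SE 0.29, adjusted p = 0.241). The median of the 4 was 0.37.

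Of 26 signalling genes, 7 were tested, and 1 was past the threshold in the 24 hr interaction, BIRC3, an inhibitor of apoptosis that binds TRAF proteins, at 2.22 (SE 0.58, limma adjusted p = 0.0394), against 0.938% of all probes. BCL3, a nuclear NF-kB cofactor, was lower at the 24 hr allergen sites of nonsensitized dogs by 0.68 (adjusted p = 0.00666) and higher at the 6 hr allergen sites of sensitized dogs by 0.83 (adjusted p = 0.00128). In these comparisons 0.766% and 0.418% of all probes were past the threshold. Both names come from the study's list. The other 5 lay between 0.01 and 0.44 in the 24 hr interaction, and the median of the 7 was 0.27.

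Among genes that TNF is known to induce, the 24 hr interaction was positive throughout. Of 20 such genes 13 were tested, and 3 were past the threshold in the 24 hr interaction: SELE, the endothelial selectin, at 2.47 (SE 0.56, limma adjusted p = 0.0188), CCL2, a monocyte chemokine, at 2.36 (SE 0.61, adjusted p = 0.0361), and IL6 at 2.90 (SE 0.76, adjusted p = 0.0407). Among all probes 0.938% were past it. The 13 interactions had a median of 1.54, and 12 of the 13 genes were named through RefSeq alone (3 past the threshold, median 1.44). The study had reported CCL2 and TNFAIP6 from these same arrays, and the list was chosen with earlier results known. These values are thus not independent evidence, whichever source named the gene. In nonsensitized dogs 4 of them were lower at the 24 hr allergen site, against 0.659% of all probes: TNFAIP6 by 2.54, IL6 by 2.52, CCL2 by 2.21 and ICAM1 by 1.15. In sensitized dogs 7 of the 13 were higher at the 6 hr allergen site, against 0.402% of all probes, among them CCL2 (2.85), IL6 (2.78), SELE (2.47) and ICAM1 (1.81). At 24 hr in the same dogs the median was 0.63 and none was past the limma threshold, the smallest adjusted p among those named being 0.0645 for SELE.

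**Figure D4:**
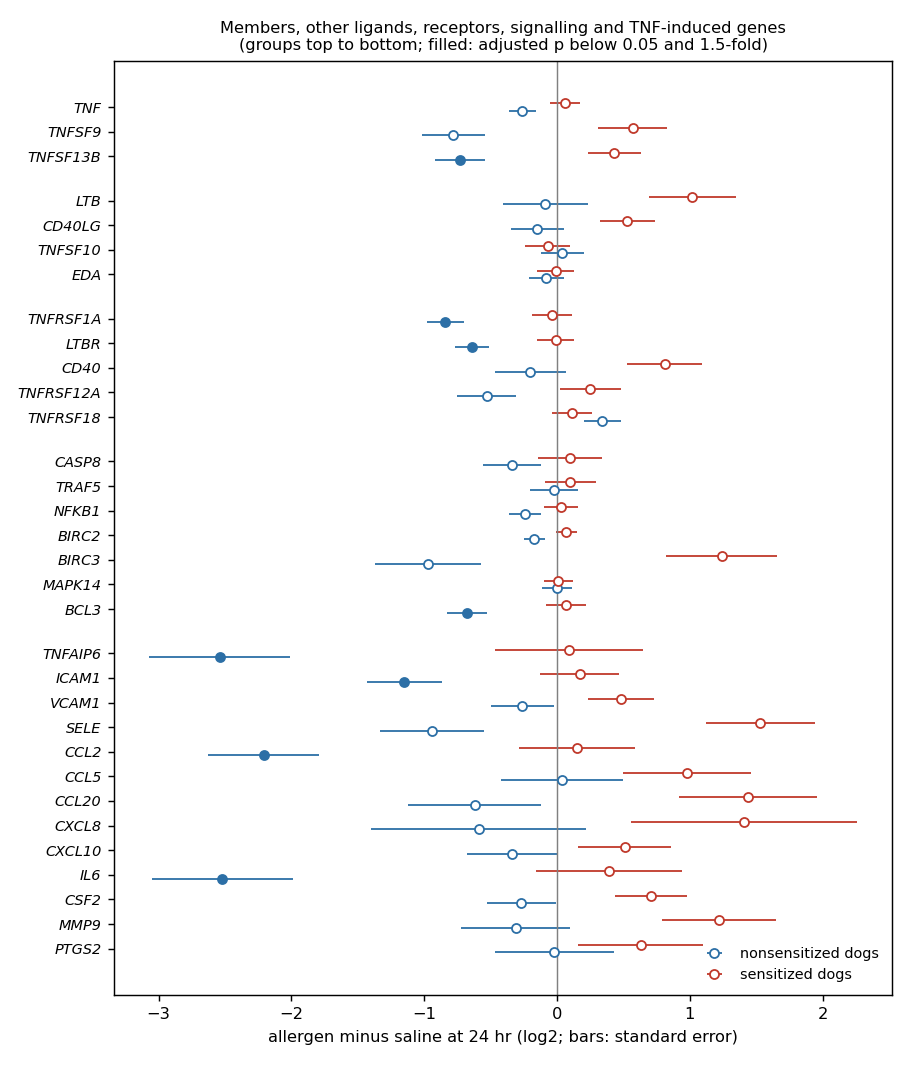
Allergen minus saline difference at 24 hr (log2, horizontal axis, bars are standard errors) for TNF, TNFSF9 and TNFSF13B and, below them, the tested other ligands, receptors, signalling genes and TNF-induced genes; filled points are past the threshold. Blue (nonsensitized) points lie left of red (sensitized) points for TNFSF9 and TNFSF13B and for all 13 TNF-induced genes.

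Several immune cell markers had positive 24 hr interactions too, and the counts past the threshold stand against 0.938% of all probes. The 4 macrophage markers tested of 7 had a median of 1.25, with 1 of 4, MRC1, the macrophage mannose receptor, past the threshold (1.61, SE 0.32, limma adjusted p = 0.00893). Of these 4, 3 (MRC1, CD14 and AIF1) were named through the study's list of genes that differed on these arrays, with a median of 1.3, and CD163, named through RefSeq, had 0.97 (adjusted p = 0.216). Their mean signal at 24 hr ranged from 9.90 to 10.84 over the allergen arrays and from 9.12 to 10.34 over the saline arrays of sensitized dogs, and from 9.33 to 9.94 and from 9.79 to 10.85 in nonsensitized dogs. The 5 T cell markers tested of 8 had a median of 0.71, with 2 of 5, CD28 (0.96) and ICOS (1.51), past the threshold against 0.938% of all probes, but the 3 named through RefSeq had a median of 0.16 and the 2 from the study's list 1.11. Their mean signal ranged from 6.42 to 7.09 with allergen and from 6.03 to 6.64 with saline in sensitized dogs, and from 5.89 to 6.25 and from 5.93 to 6.48 in nonsensitized dogs.

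The 5 mast cell markers tested of 6 had a median of 1.02, with 1 of 5, HDC, the histamine-forming enzyme, past the threshold (1.5, SE 0.33, limma adjusted p = 0.0153) against 0.938% of all probes. Their mean signal ranged from 8.51 to 9.62 with allergen and from 8.47 to 9.33 with saline in sensitized dogs, and from 8.39 to 8.98 and from 8.79 to 9.93 in nonsensitized dogs. HDC, ICOS, LCK, DSP and LOR were also named through the study's list from these arrays. The 4 mast cell markers named through RefSeq had a median of 0.84 and none past the threshold. The 4 granulocyte markers had a median of 0.58 and the 4 dendritic cell markers 0.21, with none past the threshold, and the 2 endothelium and 3 fibroblast markers had 0.25 and 0.04. All 4 granulocyte markers were positive. Their mean signal at 24 hr ranged from 8.40 to 8.55 with allergen and from 7.36 to 8.11 with saline in sensitized dogs, and from 7.19 to 7.87 and from 7.45 to 8.25 in nonsensitized dogs. The 5 keratinocyte markers tested of 8 had a median of -0.60, with DSP and TGM1 lower. No B cell marker was tested, since the one matched, MS4A1, failed the filter. The part of cell numbers in the TNFSF9 and TNFSF13B differences was not tested.

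TNFSF9 and TNFSF13B correlated at 0.86 over the 59 arrays and at 0.64 after the group means were removed. Neither followed the brighter TNF probe (-0.14 each). Likeness was compared only with named genes whose group means ranged over at least 1 on the log2 scale, 406 of 1318. The 5 most like TNFSF9 were UPP1, TLR2, FCGR1A, LILRB2 and CD14, at 0.88 to 0.89, and at 0.61 to 0.68 after group means were removed. Those most like TNFSF13B were GMFG, GIMAP4, CCL14-CCL15, FCGR2B and DOK2, at 0.89 to 0.92, and at 0.69 to 0.81 within groups. For the brighter TNF probe they were RTBDN, BDKRB2, ARSB, B3GAT2 and HCRT, at 0.77 to 0.79, and at 0.69 to 0.73 within groups. All of these points share dogs, slides and normalization, and names of the study's list were taken from genes that differed on these arrays.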

How the data were processed

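The authors amplified total RNA of 60 biopsies into Cy3-labelled cRNA, hybridized it to one-color Agilent canine arrays and deposited the processed signal intensity of each spot, background-subtracted by Agilent Feature Extraction 10.7.3.1 per the labels and not yet scaled between arrays. Spots marked as outliers were left out. The limma p-values rest on the spread of arrays around their group means. Arrays of the same dog were treated as independent, except in the fit with the dog as a block. The exact permutation and sign-flip tests took the dog as the unit. In 2 array files, deposited as plain tables, signals were rounded and the saturation flag was missing. From these intensities, a spot was kept where 5 or more arrays within any of the 10 groups had it well above background. Kept signals were variance-stabilized to a log2 scale by a reimplementation of the vsn method (90% of rows kept in its trimmed fit) and averaged per probe. Specimen 14 was left out. Group means of 59 arrays were compared without pairing in limma 3.58.1 (R 4.3.3; 49 residual and 3.52 prior degrees of freedom), with Benjamini-Hochberg adjustment over the 45972 probes. The fit and the transform were tested on simulated data. Exact permutation and sign-flip tests over dogs used Python 3.11.15 and numpy 2.4.6.

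The replicate number is the animal: deviations from the group means correlated at a median of 0.386 over 116 pairs from 1 dog and -0.044 over 1595 pairs from different dogs. Array identifiers were named through the RefSeq table (1067 identifiers) and through the study's gene list; of each list, genes past the threshold and the receptors of the ligands were named, with the 5 most alike genes. The ligands, lists and rules were chosen with earlier results of these data known. Alternatives were other scaling, filters, probes, blocks and sample sets. The number of arrays limits the precision. Gene sequences were not used here, and columns of the study's own comparisons were not used.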

Additional observations from a re-analysis of the deposited data

Results flagged for a closer look

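Of 30 sets of values, 3 genes in 10 groups, 1 held an array far from the rest, and chance marks about 1 in 20. It was TNFSF9 at the 6 hr saline site of sensitized dog 2855, at 7.22 on the log2 scale against at most 6.09 for the other 5 dogs. The same dog also had the highest 6 hr saline value of TNFSF13B (7.35) and the lowest 24 hr saline values of both genes (6.20 and 6.80), and without it the probes past the threshold in the 24 hr interaction fell from 431 to 15.

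The allergen minus saline difference at 24 hr differed between sensitized and nonsensitized dogs by the interaction test of limma, by 1.36 for TNFSF9 and by 1.17 for TNFSF13B. The change of that interaction from 6 hr to 24 hr was 0.64 (95% interval -0.35 to 1.64) for TNFSF9 and 0.47 (-0.28 to 1.23) for TNFSF13B, each with an adjusted p of 1.0, so a difference between the times was not shown.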

How the results depend on the processing

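Among allergen against saline and the interactions, 4 calls were made on the 3 genes, TNFSF9 at 6 hr in sensitized dogs, TNFSF13B at 24 hr in nonsensitized dogs and both 24 hr interactions, and each was lost under at least 1 alternative or without at least 1 dog. Without the filter the 0 hr difference of TNF was -0.0. The dimmer TNF probe, an alternative chosen after seeing the data, gave -0.13 at 0 hr and 0.26 for the 6 hr interaction, but it was not well above background on nearly every array of those groups, so no direction is read from these values. With the slide as a block, TNF in sensitized dogs at 24 hr was -0.01. TNFSF13B at 0 hr turned to 0.1 with the unscaled series values and 0.02 with normexp background correction and quantile scaling. None of these differences was past the threshold under either setting.

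The 6 hr difference of TNFSF9 in sensitized dogs missed the threshold without the filter (1.19, limma adjusted p = 0.0582), in a separate fit per time (0.98, adjusted p = 0.229) and with normexp (0.65, adjusted p = 0.0523). The 24 hr interaction of TNFSF9 missed it with 75th percentile scaling (1.5, adjusted p = 0.0762), with unscaled values (1.58, adjusted p = 0.122) and without the filter (1.51, adjusted p = 0.0908). TNFSF13B in nonsensitized dogs at 24 hr missed it with all 60 arrays (-0.74, adjusted p = 0.0517). The causes were not tested.

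With the dog as a block (pairing), TNFSF9 in nonsensitized dogs at 24 hr passed the threshold (-0.78, adjusted p = 0.0391), the 24 hr interaction had 1627 probes past it, and no other call on the 3 genes changed among the 7 comparisons run with it (0 hr, allergen against saline and the interactions). The other times and sites were not run with the dog as a block. That count, 431 in the unpaired fit, was 85 with unscaled values, 769 with all 60 arrays, 1099 with array weights as well, 230 without the filter, 1048 with the slide as a block and 702 at an unadjusted p below 0.002. At 6 hr the last rule gave 11 probes instead of 0.

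Leaving out each dog in turn gave ranges as follows. TNF ranged from -0.04 to 0.1 at 0 hr, from 0.11 to 0.23 (sensitized) and 0.24 to 0.36 (nonsensitized) at 6 hr, from -0.05 to 0.11 and -0.33 to -0.21 at 24 hr, and from -0.2 to -0.05 and 0.22 to 0.39 for the 6 hr and 24 hr interactions. TNFSF9 ranged from -0.35 to -0.07 at 0 hr, from 0.88 to 1.07 and 0.03 to 0.4 at 6 hr, from 0.42 to 0.72 and -0.89 to -0.65 at 24 hr, and from 0.58 to 0.95 and 1.21 to 1.5 for the interactions. TNFSF13B ranged from -0.08 to 0.03 at 0 hr, from 0.42 to 0.58 and -0.35 to 0.03 at 6 hr, from 0.34 to 0.53 and -0.83 to -0.59 at 24 hr, and from 0.49 to 0.87 and 1.02 to 1.27 for the interactions. The count of probes ranged from 15 to 760 at 24 hr and was 0 at 6 hr throughout. Leaving out dogs in the comparisons with untreated skin, between times and between groups at one site was chosen after seeing the data.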

Other observations

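A neighbouring family member gave a further pattern. The readthrough locus TNFSF12-TNFSF13, whose TNFSF13 part (APRIL) shares receptors with TNFSF13B, was named in the study's list from these arrays and was chosen after its values were seen. Its 3 probes target the same locus and are not separate results. They were higher at the 24 hr allergen sites of sensitized dogs by 0.91, 0.82 and 0.97 (limma adjusted p = 0.0361, 0.0229 and 0.0144), against 0.274% of all probes past the threshold. Nonsensitized dogs gave -0.20, -0.15 and -0.22, with none past it, against 0.766% of all probes. The 24 hr interaction was 1.11, 0.96 and 1.20, with limma adjusted p of 0.0518, 0.0441 and 0.0274, where 0.938% of all probes were past the threshold.

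The array left out, specimen 14, gave 6.82 for TNF, 7.57 for TNFSF9 and 8.77 for TNFSF13B when all 60 arrays were normalized together. The other 5 arrays of its group lay between 6.32 and 6.60, between 7.19 and 8.04 and between 7.47 and 8.19.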
